A study of Mus musculus with 6 samples.

Results

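The genes described here are 10 components of the NF-κB pathway: the subunits Nfkb1, Nfkb2, Rela and Relb, the inhibitors Nfkbia, Nfkbib and Nfkbie, and the feedback genes Tnip1, Traf1 and Tnfaip3. They were chosen by gene symbol from a table of 53465 genes, and all 10 were found and passed the filter on low counts that left 14038 genes. RNA was sequenced from 4T1, a mouse mammary carcinoma line, made resistant to axitinib, which blocks VEGF receptor kinases. Resistant cells were recovered from tumour lesions of mice that received 100 mg/kg/day after surgery. All 6 libraries came from this resistant line, grown with 0.5 µM axitinib, so both groups carried the drug and no untreated parental cells are compared. The SM positive group (3 libraries, replicates 1 to 3) is the fraction sorted for high cleavage of C12FDG, a fluorogenic substrate of β-galactosidase. The SM negative group (3 libraries, replicates 1 to 3) is the fraction sorted for low cleavage. High activity of this enzyme is widely used as a mark of senescence.

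NF-κB factors are dimers of Rel-family proteins that IκB inhibitors hold in the cytoplasm. When the IKK complex marks an inhibitor for degradation, the dimer enters the nucleus and switches on its targets, several of which encode inhibitors that end the signal. Nfkb1 and Nfkb2 encode the precursors p105 and p100, which are cut to p50 and p52. In senescent cells the pathway is known as a driver of secreted cytokines. Only RNA was measured here, so dimer location and inhibitor breakdown were not seen. In RNA from sorted pools, fewer cells of a type and less RNA per cell cannot be told apart.

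Promoter sequences are shown because NF-κB binds a short κB element near many of its targets. They are those of Tnfaip3 and Tnip1, whose log2 changes had opposite signs, and of the classic feedback gene Nfkbia. Windows from RefSeq (GRCm38.p6) run from 250 bases before to 50 after a gene start and were matched for 8 of the 10 members; Nfkb1 and Relb were not among them. Capitals mark each match to the degenerate 10-base κB consensus on either strand, with overlapping matches merged. Sequences are 5′ to 3′ on the strand of the gene.
Tnfaip3 promoter, chr10:19015361-19015660, minus strand: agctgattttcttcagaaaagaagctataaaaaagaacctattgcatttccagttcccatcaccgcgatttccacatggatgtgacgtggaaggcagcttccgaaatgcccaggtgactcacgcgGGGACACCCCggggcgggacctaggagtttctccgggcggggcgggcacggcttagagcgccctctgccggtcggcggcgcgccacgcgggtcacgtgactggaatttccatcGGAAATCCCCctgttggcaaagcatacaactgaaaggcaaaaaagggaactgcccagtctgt
Tnip1 promoter, chr11:54962891-54963190, minus strand: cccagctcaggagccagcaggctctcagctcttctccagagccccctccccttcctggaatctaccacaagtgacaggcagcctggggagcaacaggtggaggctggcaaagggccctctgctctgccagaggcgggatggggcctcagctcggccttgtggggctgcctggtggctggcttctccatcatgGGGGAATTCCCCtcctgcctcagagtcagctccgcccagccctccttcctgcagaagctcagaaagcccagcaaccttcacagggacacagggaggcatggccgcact
Nfkbia promoter, chr12:55492598-55492897, minus strand: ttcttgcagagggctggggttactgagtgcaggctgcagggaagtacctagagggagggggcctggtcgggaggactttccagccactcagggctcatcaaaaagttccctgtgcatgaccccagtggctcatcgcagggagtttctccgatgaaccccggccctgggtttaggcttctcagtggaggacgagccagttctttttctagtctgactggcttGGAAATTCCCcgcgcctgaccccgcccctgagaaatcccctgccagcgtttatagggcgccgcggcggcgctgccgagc
In the Tnip1 window 3 overlapping matches form 1 run that begins 58 bases before the gene start. In the Tnfaip3 window the matches begin 125 and 12 bases before the RefSeq start used for that window. The Tnfaip3 gene model whose position is given below begins further upstream, at 19015657, so both matches lie inside it. In the Nfkbia window the single match begins 29 bases before the start. A second Tnfaip3 window, at another start, held no match. Nfkb2 and Nfkbie also held a match. Counted by window, 7 of the 11 windows of the members held one, against 8.46% of all 32851 windows. The 7 belong to 5 members, 3 of them to Nfkb2. The last 2 Nfkb2 windows overlap and share 1 match, which counts for both. With the looser form of the consensus, 9 of the 11 windows held a match, against 26.8% of all windows, and Rela was added. The windows of Traf1 and Nfkbib held neither form. A match describes letters in a window and is not evidence of binding in these cells.

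In the planned main fit, which ignores the replicate number, 0 of the 10 members passed the test for a difference between the fractions. In the fit given beside it, which pairs libraries by replicate number, 4 of 10 passed. In the paired fit Tnfaip3 was higher in SM positive cells and Traf1, Nfkbib and Tnip1 were lower. The differences were small, between 1.13-fold and 1.2-fold. The subunits Nfkb1, Nfkb2, Rela and Relb and the inhibitors Nfkbia and Nfkbie passed neither fit. The background was 1.35% of all genes past the threshold (adjusted p of 0.05) without the replicate block, 1.14% higher and 0.214% lower, and 14.1% with it. Without the block, edgeR, DESeq2 and limma-voom each called 0 members. The unadjusted p in edgeR was under 0.05 for 1 member, Nfkbib, against 1913 of all 14038 genes tested. With the block, 1 of 10 members was higher, against 8.52% of all genes, and 3 of 10 were lower, against 5.6% of all genes. The median log2 change of the members was -0.07, beside 0.00 over all genes tested. Of the 10 values 8 were below 0, against 7051 of all 14038 genes. All 3 within-pair differences were negative in 5 members (Nfkb2, Relb, Nfkbib, Tnip1 and Traf1), against 22.7% of all genes, and positive in 1 (Tnfaip3), against 23.9%. The call counts rest on the pairing, which was inferred from the data. With the block, limma-voom called 3 members and DESeq2 called 1. Without pair 1, 2 or 3, edgeR with the block called 2, 3 and 1.

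**Figure D1:**
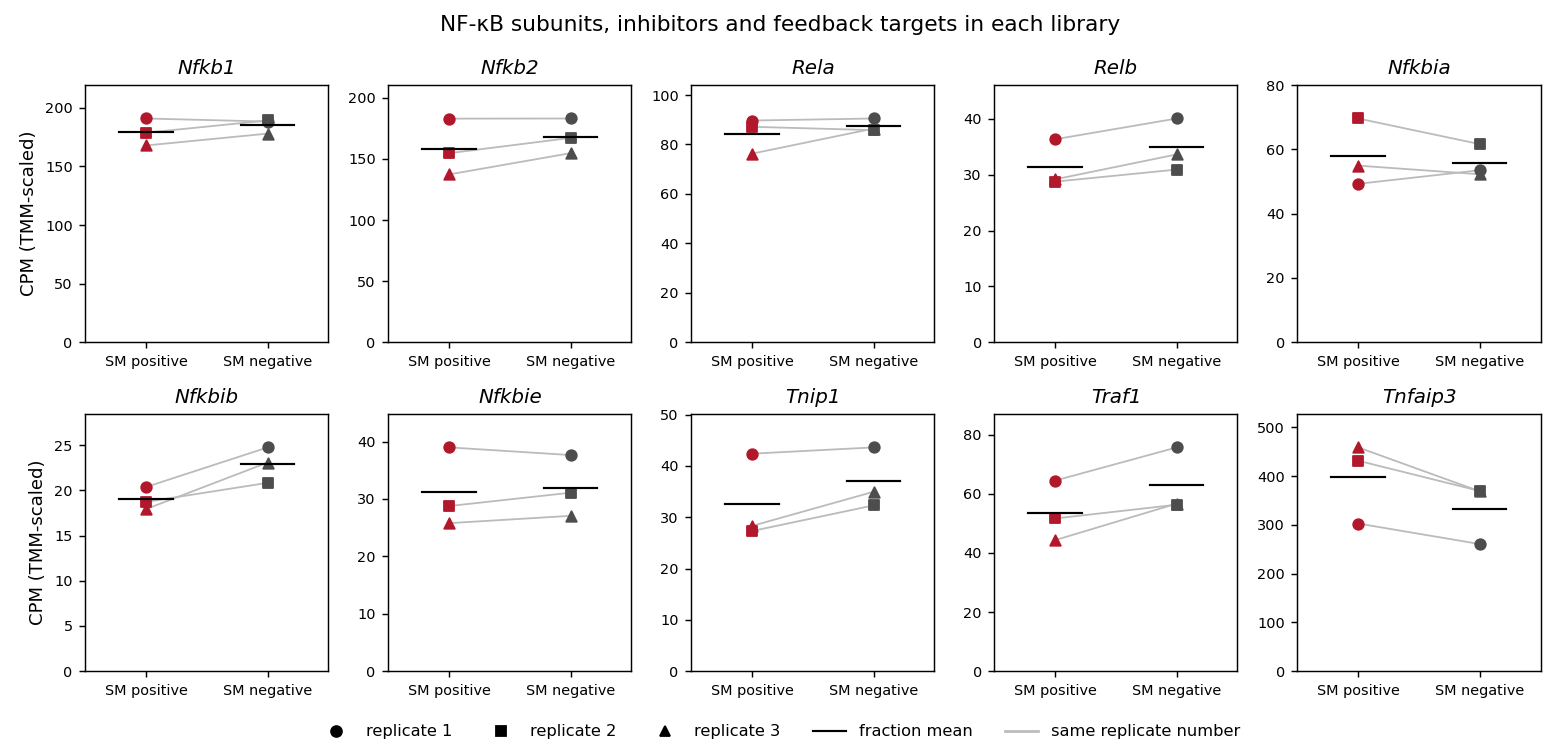
Level of each member in each library, in CPM (counts scaled by TMM to a common library total), from 0 on a linear axis, with SM positive libraries on the left. Symbols mark the replicate number, grey lines join libraries with the same number and black bars are fraction means; Nfkbib is the member whose fractions did not overlap, and the Tnfaip3 lines all run higher in SM positive.

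Tnfaip3 encodes A20, a ubiquitin-editing enzyme that shuts down signalling to IKK. Its levels were 302.8, 431.7 and 459.0 CPM (counts scaled to a common library total) in SM positive replicates 1, 2 and 3 and 260.7, 369.6 and 368.8 CPM in SM negative replicates 1, 2 and 3. Both replicate 1 libraries were low and the fractions overlapped, yet within every replicate number the SM positive library was the higher. The within-pair differences were 0.22, 0.22 and 0.32 on the log2 scale. The mean was 397.8 ± 83.4 CPM in SM positive cells and 333.1 ± 62.7 CPM in SM negative cells (SD, n = 3 each). The log2 change was 0.26 ± 0.206 (SE; 95% interval -0.25 to 0.76; adjusted p = 0.67) without the block, and 0.25 ± 0.0396 (95% interval 0.17 to 0.33; adjusted p = 0.000189) with it. With the block, the call held under each of the 7 other settings tried, including each pair left out, at adjusted p = 0.0148 or less. It was the only member with that record. The gene lies on chromosome 10, 19000910 to 19015657, minus strand (ENSMUSG00000019850.11; GRCm38, as are all positions here).

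Tnip1 encodes ABIN1, a ubiquitin-binding partner of A20 that also restrains the pathway. It stood at 42.4, 27.3 and 28.3 CPM in SM positive replicates 1, 2 and 3 and at 43.6, 32.3 and 35.0 CPM in SM negative replicates 1, 2 and 3. The replicate 1 libraries were the highest of each fraction and nearly level with each other. The differences within pairs were -0.04, -0.24 and -0.30 on the log2 scale. The log2 change was -0.18 ± 0.19 (SE; 95% interval -0.62 to 0.27; adjusted p = 0.765) without the block and -0.18 ± 0.0588 (adjusted p = 0.0437) with it. This blocked call was the weakest of the 4. It ended without pair 2 (adjusted p = 0.164) or pair 3 (0.325), with library totals (0.0505), with limma-voom (0.0539) and with DESeq2 (0.408). The blocked log2 change was -0.28 without pair 1, -0.15 without pair 2 and -0.13 without pair 3. Tnip1 spans 54910785 to 54962917 on chromosome 11, minus strand.

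Traf1 encodes an adaptor of TNF receptors that is itself induced by NF-κB. Its levels were 64.5, 51.6 and 44.3 CPM in SM positive replicates 1, 2 and 3 and 75.7, 56.3 and 56.7 CPM in SM negative replicates 1, 2 and 3. Within each pair the SM positive library was lower, by log2 differences of -0.23, -0.12 and -0.35, although the SM positive replicate 1 library exceeded SM negative replicates 2 and 3. The log2 change was -0.23 ± 0.165 (SE; 95% interval -0.62 to 0.15; adjusted p = 0.616) without the block and -0.24 ± 0.0493 (adjusted p = 0.00283) with it. The blocked call ended without pair 1 (adjusted p = 0.0574) or pair 3 (0.0598) and with DESeq2 (0.0729). Traf1 lies on chromosome 2, 34941750 to 34961772, minus strand.

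Among the inhibitors, Nfkbib was lower with the block while Nfkbia and Nfkbie were not called in either fit. Nfkbib encodes IκBβ, and its levels were 20.4, 18.7 and 17.9 CPM in SM positive replicates 1, 2 and 3, against 24.8, 20.8 and 23.1 CPM in SM negative replicates 1, 2 and 3. The fractions did not overlap, which held for 1 of 10 members in this direction and for 9.47% of all genes; 0 of 10 members were free of overlap in the other direction, against 10.4% of all genes. The log2 change was -0.27 ± 0.092 (SE; adjusted p = 0.231) without the block and -0.27 ± 0.0674 (adjusted p = 0.0106) with it. The blocked call ended without pair 1 (adjusted p = 0.104) or pair 3 (0.131) and with DESeq2 (0.279). Nfkbib was the member with the fewest reads, between 354 and 622 counts per library. It lies on chromosome 7, 28758251 to 28767512, minus strand, where Sirt2 overlaps it on the opposite strand, and transcripts of other genes share 14% of its 31-base stretches. Sirt2, a deacetylase gene, stood at 40.5 ± 1.81 CPM in SM positive cells and 41.8 ± 4.16 CPM in SM negative cells (SD, n = 3 each; log2 change -0.04, adjusted p = 0.87 without and 0.674 with the block).

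Nfkbia encodes IκBα, the fast-responding inhibitor that NF-κB induces as its own brake. It stood at 49.3, 69.6 and 55.0 CPM in SM positive replicates 1, 2 and 3 and at 53.5, 61.6 and 52.3 CPM in SM negative replicates 1, 2 and 3. The replicate 2 libraries were the highest in both fractions, and the pair differences were of both signs (log2 -0.12, 0.18 and 0.07). Its log2 change was 0.05 ± 0.123 (SE; adjusted p = 0.9) without the block and 0.04 ± 0.0534 (95% interval -0.07 to 0.15; adjusted p = 0.673) with it. Nfkbie encodes IκBε, and its levels were 39.0, 28.8 and 25.8 CPM in SM positive replicates 1, 2 and 3 and 37.6, 31.1 and 27.1 CPM in SM negative replicates 1, 2 and 3. Libraries with the same number lay close together, and the replicate 1 libraries were the highest in both fractions. The blocked log2 change of Nfkbie was -0.04 ± 0.0567 (95% interval -0.15 to 0.08; adjusted p = 0.747). Nfkbia lies on chromosome 12, 55489410 to 55492647, minus strand, and Nfkbie on chromosome 17, 45555703 to 45563169, plus strand. Without the block the 95% intervals were wider, at -0.22 to 0.33 for Nfkbia and -0.42 to 0.36 for Nfkbie.

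The differences in the subunits were small and passed in neither fit. Nfkb1 stood at 190.9, 178.8 and 167.9 CPM in SM positive replicates 1, 2 and 3 and at 188.3, 189.3 and 178.0 CPM in SM negative replicates 1, 2 and 3. Rela, which encodes the transactivating subunit p65, stood at 89.7, 87.1 and 76.3 CPM in SM positive replicates 1, 2 and 3 and at 90.5, 85.8 and 86.4 CPM in SM negative replicates 1, 2 and 3. In both genes the SM positive replicate 3 library was the lowest of the 6 and the fractions otherwise overlapped. Blocked log2 changes were -0.05 ± 0.0407 for Nfkb1 (adjusted p = 0.496) and -0.06 ± 0.0457 for Rela (adjusted p = 0.482).

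Nfkb2 and Relb form the non-canonical branch, in which p100 is cut to p52 and pairs with RelB. Nfkb2 stood at 182.9, 154.7 and 137.3 CPM in SM positive replicates 1, 2 and 3 and at 183.0, 167.2 and 154.7 CPM in SM negative replicates 1, 2 and 3. Relb stood at 36.4, 28.8 and 29.2 CPM in SM positive replicates 1, 2 and 3 and at 40.1, 30.9 and 33.6 CPM in SM negative replicates 1, 2 and 3. For Relb the SM positive library was the lower in each pair, and for Nfkb2 likewise, though in the first pair by a log2 difference that rounds to 0.00. The blocked log2 change was -0.09 ± 0.0427 for Nfkb2 (adjusted p = 0.161) and -0.15 ± 0.0542 for Relb (adjusted p = 0.0708). Neither passed the threshold under any setting tried. Psd overlaps the end of Nfkb2 on the opposite strand and stood at 15.7 ± 2.14 CPM in SM positive cells and 18.8 ± 0.208 CPM in SM negative cells (log2 change -0.25, adjusted p = 0.311 without and 0.0378 with the block). Its part in the Nfkb2 level was not tested. Transcripts of other genes share 16.3% of the 31-base stretches of Nfkb2. Rela and Nfkb2 lie on the plus strand of chromosome 19 (5637483 to 5648130 and 46304320 to 46312385), Nfkb1 on the minus strand of chromosome 3 (135584655 to 135691547) and Relb on the minus strand of chromosome 7 (19606217 to 19629438).

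**Figure D2:**
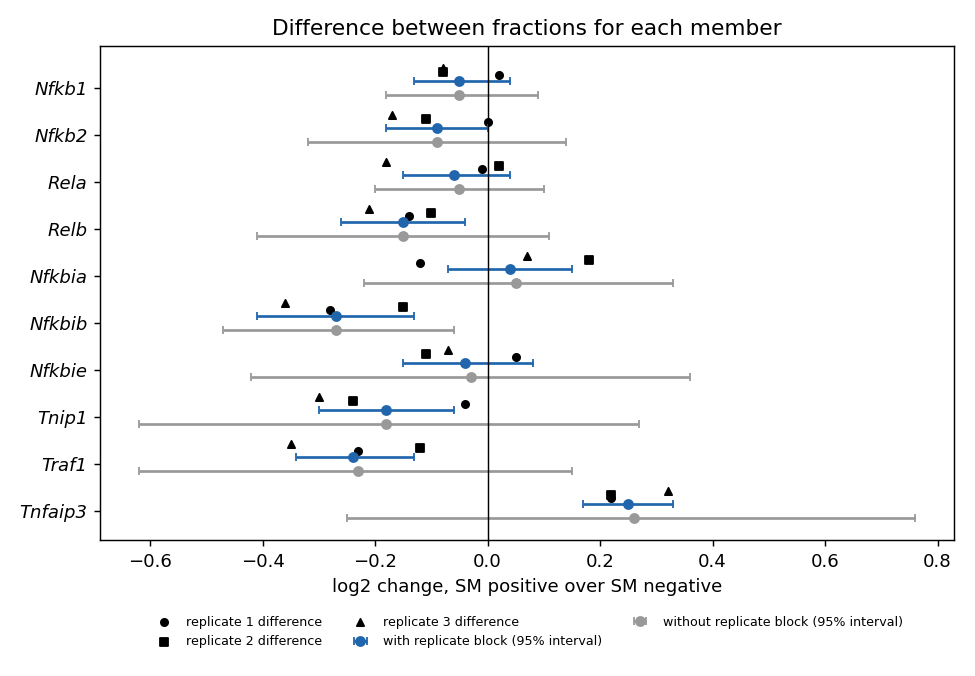
Log2 change of each member, SM positive over SM negative, with 95% intervals (not adjusted for the number of genes) from the fit with the replicate block in blue and without it in grey; black symbols are the differences within each replicate number. The blue intervals of Tnfaip3 (0.17 to 0.33), Nfkbib (-0.41 to -0.13), Tnip1 (-0.30 to -0.06) and Traf1 (-0.34 to -0.13) exclude 0, as do those of Relb (-0.26 to -0.04) and Nfkb2 (-0.18 to an upper end just below 0; unadjusted p = 0.0411 in edgeR), which did not pass after adjustment.

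Most members also varied with the replicate number. In a test of the replicate number within the blocked fit, chosen after the values were seen, 7 of the 10 members passed, against 17% of all genes. These were Nfkb2, Relb, Nfkbia, Nfkbie, Tnip1, Traf1 and Tnfaip3. The mean log2 level of Tnip1 ranged over 0.53 between replicate numbers, against a fraction difference of -0.20. That of Nfkbie also ranged over 0.53, against a fraction difference of -0.04. For Tnfaip3 the range was 0.55 (adjusted p = 3.05e-07 for the replicate number), against a fraction difference of 0.25. In 7 of the 10 members replicate 1 was the highest library in both fractions, which held for 20.8% of all genes. Tnfaip3 ran the other way, with replicate 1 the lowest in both fractions, by -0.53 log2 units against the other replicates. A range over 3 replicate numbers and a difference between the fractions are not like for like, so they are given side by side only. What a replicate number stands for is not given in the labels.

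**Figure D3:**
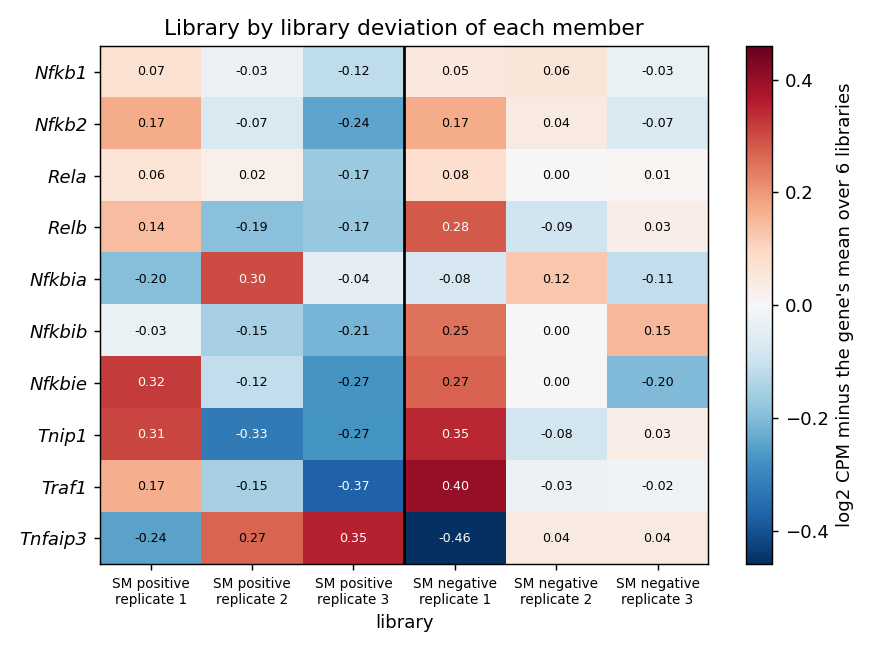
Log2 CPM of each member in each library minus the mean of that gene over the 6 libraries, with SM positive libraries left of the line. Tnip1, Traf1 and Nfkbie are above their mean in replicate 1 of both fractions, and Tnfaip3 is below it there (-0.24 in SM positive and -0.46 in SM negative).

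To order the members by level, CPM was divided by the length of each gene model, taken as the union of its exons. On this scale of CPM per kilobase, Tnfaip3 was the highest, at 55.1 ± 11.5 in SM positive and 46.1 ± 8.67 in SM negative cells. In SM positive cells Nfkbia (36.0 ± 6.52), Nfkb2 (34.5 ± 5.02) and Rela (27.5 ± 2.31) followed. In SM negative cells the same 3 stood at 34.7 ± 3.16 for Nfkbia, 36.7 ± 3.10 for Nfkb2 and 28.5 ± 0.83 for Rela, so Nfkbia and Nfkb2 did not differ beyond their spread. Nfkb1 was next, at 14.9 ± 0.955 in SM positive and 15.4 ± 0.516 in SM negative cells. The remaining 5 lay between 6.06 and 10.2 in SM positive and between 7.13 and 10.6 in SM negative cells. The places of Nfkb1 and Traf1 depend on the length used, as does the order of Nfkbia and Nfkb2 in SM positive cells. The order among Relb, Nfkbib, Nfkbie and Tnip1, whose means lay close together, also changed with the length used. The annotated exons of Nfkb1 cover 12061 bases while its longest transcript has 4149, and those of Traf1 cover 8819 against 3436. With the longest transcript Nfkb1 stood at 43.2 ± 2.78 in SM positive and 44.6 ± 1.5 in SM negative cells. This was within the spread of Nfkb2, at 41.2 ± 5.99 in SM positive and 43.8 ± 3.69 in SM negative cells on that scale. The mean of Nfkbia was then below that of Nfkb2, at 36.7 ± 6.65 in SM positive and 35.4 ± 3.23 in SM negative cells. Traf1, the lowest of the 10 by exon union (6.06 ± 1.16 in SM positive and 7.13 ± 1.26 in SM negative cells), stood at 15.6 ± 2.97 in SM positive and 18.3 ± 3.23 in SM negative cells by longest transcript, where its mean was above those of Relb, Nfkbib, Nfkbie and Tnip1.

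The rest of the pathway was covered by 134 further genes in 7 lists, of which 109 were tested. Without the block 4 were higher in SM positive cells and 0 lower, against 1.14% and 0.214% of all genes. With it 16 were higher and 8 lower, against 8.52% and 5.6% of all genes. Whether the lists differed from other genes or from each other was not tested. The 4 were the TNF receptor gene Tnfrsf1b and the target genes Ptgs2, Lcn2 and Sdc4. Without the block, the number called was also 4 without SM positive replicate 1, but Tnfrsf1b was lost (adjusted p = 0.0894) and the chemokine gene Ccl5 passed as lower (adjusted p = 0.0162). It was 2 and 1 without SM positive replicate 2 or 3, and 0 without any one of SM negative replicates 1, 2 and 3. Of the 24 calls with the block, 7 held with each pair left out, namely Tnfrsf1b, Ptgs2, Lcn2, Sdc4, Tlr3, Traf4 and Ccl5. With DESeq2 and the block 8 held, these 7 and Myc. The other 17 were lost without at least 1 pair, and 6 of them (Traf3ip2, Sigirr, Tnfrsf9, Il18, Vcam1 and Pim1) whichever pair was left out. The median log2 change over the 109 genes was 0.03, beside 0.00 over all genes. The list named remaining Rel and IκB family also takes in regulators outside that family, such as Nkiras2 and Nkrf. Of its 9 genes, 0 passed either fit, with 0 at an unadjusted p under 0.05 without the block and 1 with it. Over all 14038 genes tested, 1913 had an unadjusted p under 0.05 without the block and 3836 with it. Nkiras2, which encodes a small GTPase-like partner of IκB, had the smallest p in that list without the block, at 37.8 ± 1.85 CPM in SM positive cells and 35.5 ± 1.74 CPM in SM negative cells (log2 change 0.09, adjusted p = 0.65). With the block the smallest p was that of Nkrf, which encodes NF-κB repressing factor (log2 change 0.13, adjusted p = 0.146).

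Of 17 genes for IKK and its upstream kinases, 0 passed without the block and 1 was higher with it, against 8.52% of all genes. This was Tab3, whose product links ubiquitin chains to the kinase TAK1, at 107.2 ± 3.42 CPM in SM positive cells and 96.2 ± 2.93 CPM in SM negative cells (log2 change 0.16; adjusted p = 0.239 without and 0.0146 with the block). The blocked Tab3 call ended without pair 1 (adjusted p = 0.166) or pair 3 (0.0774) and with DESeq2 (0.173). Of 20 adaptors and ubiquitin enzymes, 0 passed without the block and 1 was lower with it, against 5.6% of all genes. This was Traf4, a TRAF-family adaptor, at 59.3 ± 6.34 CPM in SM positive cells and 70.6 ± 5.38 CPM in SM negative cells (log2 change -0.25; adjusted p = 0.233 without and 0.000607 with the block). Of 16 tested genes in the list of other brakes, 0 passed without the block. With it 1 was higher and 1 lower, against 8.52% and 5.6% of all genes. Sigirr, a decoy-like inhibitor of IL-1 and Toll-like receptors, was the lower one (log2 change -0.15, adjusted p = 0.0437 with the block). The higher one was Traf3ip2 (log2 change 0.18, adjusted p = 0.0392 with the block), whose product is better known as an adaptor that carries IL-17 receptor signals than as a brake. Without 1 pair the blocked adjusted p was 0.0776 to 0.205 for Sigirr and 0.134 to 0.157 for Traf3ip2, and with DESeq2 it was 0.415 and 0.487.

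Of 15 tested receptors that feed the pathway, 1 was higher without the block, against 1.14% of all genes. With it 5 were higher and 1 lower, against 8.52% and 5.6% of all genes. Their median log2 change was 0.19. Tnfrsf1b, which encodes TNF receptor 2, stood at 71.1, 66.4 and 69.5 CPM in SM positive replicates 1, 2 and 3 and at 52.2, 52.8 and 58.6 CPM in SM negative replicates 1, 2 and 3, with no overlap (log2 change 0.34 ± 0.0653 SE, adjusted p = 0.0349). Without the block this call was lost whichever of the 6 libraries was removed (adjusted p of 0.0571 to 0.152). Tlr3, a sensor of double-stranded RNA, stood at 78.8 ± 2.63 CPM in SM positive cells and 66.4 ± 1.04 CPM in SM negative cells (log2 change 0.25; adjusted p = 0.0627 without and 0.000535 with the block). With the block, the IL-1 receptor gene Il1r1 (log2 change 0.46, adjusted p = 0.00784) and the TNF receptor 1 gene Tnfrsf1a (log2 change 0.19, adjusted p = 0.016) were also higher. Both calls ended without pair 1 (adjusted p = 0.21 for Il1r1 and 0.193 for Tnfrsf1a) and with DESeq2 (0.26 and 0.271), and that of Tnfrsf1a also without pair 2 (0.0916). The T-cell costimulatory receptor gene Tnfrsf9 was lower with the block (log2 change -0.52, adjusted p = 0.0272), a call that ended without any one pair (adjusted p of 0.102 to 0.127) and with DESeq2 (0.415). Few ligands were expressed: 3 of 15 were tested, and Tnf itself reached at most 2 counts in a library, too few at this depth to show a difference. Of the 3 tested ligands, Il18 alone had a log2 change above 0 and the other 2 were below it (median -0.09). Il18 stood at 3.89 ± 0.403 CPM in SM positive cells and 2.73 ± 0.254 CPM in SM negative cells (log2 change 0.50; adjusted p = 0.212 without and 0.0461 with the block). The blocked Il18 call ended without any one pair (adjusted p of 0.0976 to 0.299), with limma-voom (0.0539) and with DESeq2 (0.504).

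Of 29 other NF-κB targets tested, 3 were higher and 0 lower without the block, against 1.14% and 0.214% of all genes. With it 8 were higher and 5 lower, against 8.52% and 5.6% of all genes. Sdc4, the cell-surface proteoglycan syndecan 4, stood at 246.6, 289.9 and 251.9 CPM in SM positive replicates 1, 2 and 3 and at 208.5, 214.6 and 198.9 CPM in SM negative replicates 1, 2 and 3. Every SM positive library was above every SM negative one (log2 change 0.34 ± 0.0686 SE, adjusted p = 0.0415 without and 1.4e-05 with the block). Without the block the Sdc4 call held without SM positive replicate 1 (adjusted p = 0.0331) and ended without each of the other 5 libraries (0.0869 to 0.179). Ptgs2 and Lcn2 had log2 changes of 0.60 and 0.85; without the block, each call ended without SM negative replicate 1, 2 or 3 (adjusted p of 0.0541 to 0.0848 for Ptgs2 and 0.0658 to 0.0977 for Lcn2), and that of Lcn2 also without SM positive replicate 3 (0.0745). Cx3cl1, a membrane-bound chemokine gene, was higher with the block (log2 change 0.22, adjusted p = 0.00677), but not without pair 1 (0.176) or with DESeq2 (0.208). Lower with the block were Ccl5 (log2 change -0.61), the kinase gene Pim1 (-0.29), Myc (-0.17) and the adhesion molecule gene Vcam1 (-0.16), at adjusted p = 0.0237 or less. Of these 4, only Ccl5 held with each pair left out (adjusted p = 0.00255 or less). Icam1 and Il6, often used as readouts of the pathway, had at most 15.1 and 3 counts per library and were not tested.

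**Figure D4:**
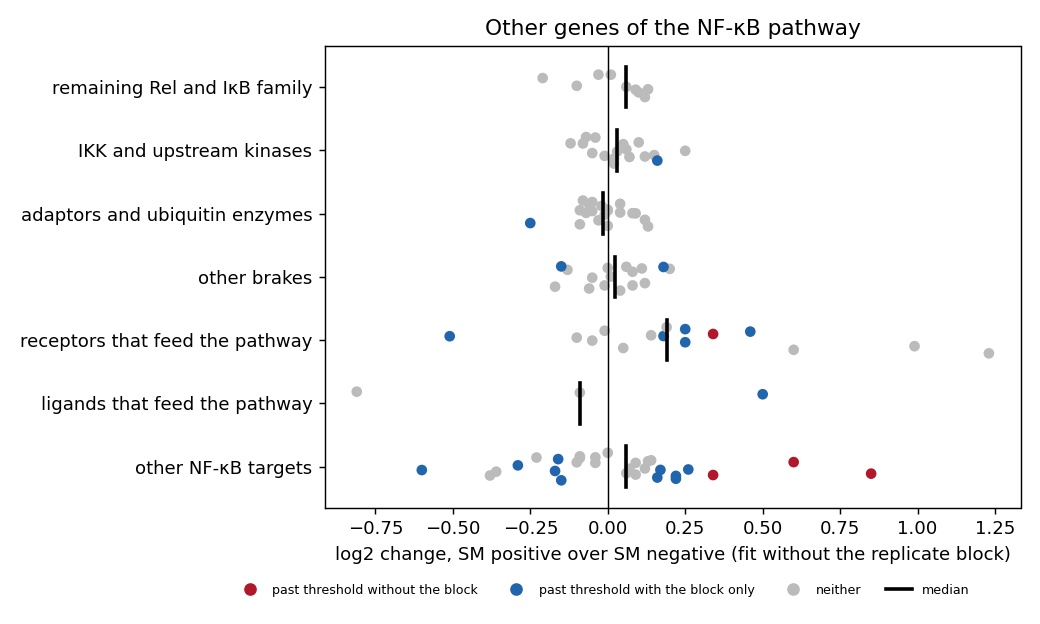
Log2 change of the tested genes in 7 lists of other NF-κB pathway genes, SM positive over SM negative, from the fit without the replicate block; red genes passed without the block, blue genes only with it, and black bars are medians. The receptor list has its median at 0.19 and the list named remaining Rel and IκB family has no coloured point.

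Libraries held 18733801 to 26533528 counts. In a check of the carcinoma label, 8 epithelial genes summed to 4220 to 4540 CPM in SM positive libraries and 4500 to 4720 CPM in SM negative libraries. Of these 8, Epcam, Krt19 and Cldn4 were lower with the block, against 5.6% of all genes, and 0 passed without it. Each list of markers of other cell types summed to at most 9.0 CPM in a library. The 12 leukocyte genes summed to 4.90 to 6.43 CPM in SM positive libraries and 6.65 to 9.0 CPM in SM negative libraries, with Adgre1, Cd3e, Ly6g, Nkg7 and Tyrobp at 0 counts. The 10 fibroblast and pericyte genes summed to 5.93 to 8.21 CPM in SM positive libraries and 4.45 to 5.25 CPM in SM negative libraries, with Lum, Col3a1 and Thy1 at 0 counts. The sums of these lists did not overlap between the fractions, that of leukocyte genes being lower and that of fibroblast and pericyte genes higher in SM positive libraries. Each sum was mostly a single gene, so it does not describe its list as a whole. The 3 tested fibroblast and pericyte genes all had log2 changes above 0, and 1 passed with the block, against 8.52% of all genes. Cd68 stood at 4.25 to 5.67 CPM in SM positive libraries and 6.09 to 8.01 CPM in SM negative libraries. Pdgfra stood at 4.25 to 6.33 CPM in SM positive libraries and 3.32 to 3.82 CPM in SM negative libraries. The macrophage marker Cd68 was lower with the block (log2 change -0.46, adjusted p = 0.0148) and the fibroblast marker Pdgfra higher (0.49, adjusted p = 0.0423), and neither passed without it. These 5 blocked marker calls (Epcam, Krt19, Cldn4, Cd68 and Pdgfra) each ended without pair 1 and without pair 3. Those of Krt19 (adjusted p = 0.0506), Cd68 (0.0697) and Pdgfra (0.0564) also ended without pair 2. The 8 endothelial genes summed to 5.18 to 6.19 CPM in SM positive libraries and 5.40 to 6.77 CPM in SM negative libraries. The part of these markers in the NF-κB results was not tested.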

How the data were processed

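Per the labels' protocols, polyadenylated RNA was turned into libraries with a stranded mRNA kit. The authors deposited expected counts per gene, 1 column per library; the submitters' processing notes name FastQC 0.11.5, STAR 2.6.0a, RSEM 1.3.1 and GRCm38, without roles. Annotation release and strand setting: not given in the sources used here. Antisense reads may therefore be included. GENCODE M21 (GRCm38) gave symbols and positions for 99.8% of identifiers. Expected counts were rounded, filtered (filterByExpr), TMM-scaled and tested with edgeR 4.0.16 (R 4.3.3; robust quasi-likelihood F test, Benjamini-Hochberg adjustment over 14038 genes, threshold 0.05); DESeq2 1.42.0 and limma 3.58.1 were alternatives. Log2 CPM used a prior count of 2. No 2 libraries agreed within sampling noise (chi-square per gene at least 6.32).

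The labels do not tie replicates to separate cultures; the spread behind each p-value is that between libraries and may be technical. Deviations from fraction means correlated at 0.22, 0.28 and 0.196 between libraries of the same number and at -0.175 to -0.0435 between others. Because the fraction mean was subtracted, positive values for the same number force negative ones elsewhere on balance, so these add no separate evidence. All 3 same-number values exceeded 0.1. A fit with libraries paired by number was therefore given beside the planned main fit, which had no block. Blocked values are printed for every member and for most other named genes. The members and lists were chosen with earlier results of these data known. Named pathway genes were those past the threshold in either fit, up to 4 each way per list by smallest p with a mean of at least 1 CPM, or else the gene with the smallest p; Icam1, Il6, Tnf, Nkrf, Sirt2, Psd, Cd68 and Pdgfra were added after their values were seen. A planned search of the IκB proteins for their degradation signal was not run.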

Additional observations from a re-analysis of the deposited data

How the results depend on the processing

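Without the replicate block, 0 members passed under each of the 13 other settings, and 6 of their values changed sign. With the replicate block, 4 members, 24 pathway genes and 1982 genes passed. The block with RLE size factors gave 4 members, 24 pathway genes and 1975 genes, with library totals 3, 24 and 1961, with limma-voom 3, 24 and 1978, and with DESeq2 1, 8 and 612; the cause of the lower DESeq2 counts was not tested. With the block and without pair 1, 2 or 3, the counts were 2, 3 and 1 members, 11, 20 and 10 pathway genes and 705, 1793 and 886 genes. Log2 changes with the block were -0.27 for Nfkbib, -0.18 for Tnip1 (-0.19 with DESeq2), -0.24 for Traf1 (-0.23 with library totals) and 0.25 for Tnfaip3 under the scalings and tools tried. With 1 pair left out they ranged from -0.32 to -0.22 for Nfkbib, -0.28 to -0.13 for Tnip1, -0.29 to -0.18 for Traf1 and 0.22 to 0.27 for Tnfaip3.

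Without the block, leaving out 1 library gave 25 to 123 genes and 0 to 4 pathway genes; each of the 4 calls (Ptgs2, Lcn2, Tnfrsf1b and Sdc4) was lost in at least 3 of the 6 fits. No filter gave 663 genes and 8 pathway genes, and DESeq2 334 genes. Over the 6 fits that left out 1 library the log2 change spanned -0.10 to 0.16 for Nfkbia, -0.23 to 0.11 for Nfkbie, -0.21 to 0.01 for Nfkb2 and -0.10 to 0.01 for Rela, so their signs were not stable. With the block, that of Nfkbia was -0.03 without pair 2 and that of Rela 0.00 without pair 3. Of the members, Nfkbib had the fewest counts, 354 to 622 per library.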
